A study of Chlamydomonas reinhardtii with 15 samples.

Results

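FEA1 and FOX1 are genes of iron uptake in the green alga Chlamydomonas reinhardtii, and their transcript levels were followed across cultures exposed to 4 chemicals and untreated cultures. These 2 genes are among 6854 loci with a tagged probe on the array, which holds 16283 probes in all. FEA1 was taken as the specific-class probe for transcript 129929, locus CHLRE_12g546550v5. FOX1 was selected on its measured values, as the only probe with a fixed set of deposited levels in the control, tert-butylhydroperoxide and DBMIB arrays; it reads transcript 184156, locus CHLRE_09g393150v5. Each locus has 1 probe, printed in 3 spots. The gene names come with the choice of the genes, since the annotation table used here holds locus tags without symbols, and the identity of the loci could not be checked against a sequence. Both genes were chosen by their measured response in these data, so their levels are given as a description. A test is given only for FOX1 between neutral red and hexenal, whose values were not among those that picked out its probe. Earlier results of these data were known at the choice, so this test is not independent of it.

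Algal cells take up iron from dilute sources by a reductive pathway at the plasma membrane: ferric iron is reduced, reoxidised by a multicopper ferroxidase and passed to a permease that works with it. FOX1 is that ferroxidase. FEA1 is a secreted, iron-assimilating protein of the space outside the plasma membrane. Transcripts of both genes are known to accumulate when Chlamydomonas is short of iron, and they serve as markers of that state.

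All cultures were the wild-type strain 4A+ in the 137c background, grown in acetate medium in the light, moved to flasks and kept for 2 h with 1 chemical at 1 concentration or with none. Control cultures received no chemical. Neutral red (NR) was given at 3 µM and acts as a photosensitiser that makes singlet oxygen. tert-Butylhydroperoxide (tBOOH), an organic peroxide, was given at 100 µM. DBMIB, given at 2 µM, is a quinone inhibitor of the cytochrome b6f complex. The aldehyde 2(E)-hexenal (Hexenal), an electrophile, was given at 0.3 mM. Each group had 3 cultures, described by the submitters as independent biological replicates, and each culture was read on 1 one-colour array. On the 12 treated arrays the share of probes well above background ran from 72.7% in DBMIB replicate 2 to 89.8% in NR replicate 2, and no spot was saturated. Against control, 45% of all probes were called in the NR cultures, 60.1% in tBOOH, 61.9% in DBMIB and 57.3% in Hexenal (limma, Benjamini-Hochberg adjusted p under 0.05), so a call by itself sets no gene apart in this study. Unless the scanner scale is named, levels below are the log2 signals the authors deposited, which are quantile-normalized between arrays; a log2 difference of 1 is a doubling of signal. With 3 arrays a group, their number limits precision. A lower level in every cell cannot be told apart from fewer cells carrying the transcript.

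FEA1 transcript was higher than control under tBOOH and far lower than control under the other 3 chemicals. The control arrays read 11.75, 11.5 and 10.64 in replicates 1 to 3. Under tBOOH they read 16.37, 15.5 and 16.01. Every tBOOH array thus lay above every control array, with a gap of 3.75 between the lowest tBOOH and the highest control value. Under NR the levels were 6.106, 5.612 and 5.051, all at least 4.53 below the lowest control array.

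Under DBMIB, FEA1 read 5.521, 3.388 and 5.217, and under Hexenal 3.628, 5.862 and 3.759. All 6 of these arrays lay below control as well, but the values of each group were widely spread. Only 2 of 3 DBMIB arrays and 1 of 3 Hexenal arrays were well above background, the exceptions being DBMIB replicate 2 and Hexenal replicates 1 and 3.

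As group means, FEA1 was at 11.30 ± 0.58 in control, 15.96 ± 0.44 under tBOOH, 5.59 ± 0.53 under NR, 4.71 ± 1.15 under DBMIB and 4.42 ± 1.25 under Hexenal (SD, n = 3 each). These means differ from control by log2 4.66 (25.3-fold higher) under tBOOH and by -5.71 (52.2-fold lower) under NR. The differences under DBMIB and Hexenal were -6.59 and -6.88, and no fold is given for them because they rest in part on signals not above background. Without DBMIB replicate 2 the DBMIB difference was -5.93, and without Hexenal replicate 2 the Hexenal difference was -7.60. Of 16283 probes, 3 lay at least as far below control as FEA1 under NR, FEA1 included, while 61 lay at least as far above it under tBOOH.

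FOX1 showed the same order of groups with smaller differences. Its control arrays read 11.82, 12.38 and 11.78, and its tBOOH arrays 14.71, 14.22 and 14.24. Under DBMIB it read 7.065, 6.485 and 6.98. These 9 values picked out the probe; tBOOH lay above and DBMIB below control with no overlap, as the choice fixed. In those comparisons 31.9% of all probes were called higher and 30.4% lower.

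Under NR, FOX1 read 8.295, 8.141 and 7.257, and under Hexenal 6.15, 6.463 and 5.962. None of these 6 arrays came within 3 log2 units of the lowest control array, and all 12 treated arrays were well above background for this probe. FOX1 was 17.1-fold lower under NR than in control (7.90 ± 0.56 against 11.99 ± 0.34, SD, n = 3 each; log2 difference -4.10), in a comparison in which 21.3% of probes were called lower. It was 55.8-fold lower under Hexenal (6.19 ± 0.25; log2 difference -5.80), where 25.7% of probes were called lower. No test is given for these differences, since the control values were part of the choice of the probe. NR and Hexenal values were not among those that picked it out. Between these treatments FOX1 was 3.87-fold higher under NR on the scanner scale (log2 difference 1.95, SE 0.271, adjusted p = 8.22e-05, limma). In that comparison 27.2% of probes were called higher under NR. All 3 NR arrays lay above all 3 Hexenal arrays. This call held in every alternative run for it, and the log2 difference was 1.26 with local background subtracted and 50 added. The SE of this test took its spread from all 12 treated arrays, so the tBOOH and DBMIB values of FOX1 entered it. The adjusted p of this test is therefore not free of the values that picked out the probe. No fit of NR and Hexenal alone was run.

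Differences of FOX1 from control were 2.40 under tBOOH (5.27-fold higher) and -5.15 under DBMIB (35.5-fold lower, to 6.84 ± 0.31), and 784 and 13 probes changed at least as far in those directions, FOX1 included. Under NR and Hexenal 33 and 71 probes lay as far below control. In each of the 4 comparisons the size of the difference was greater for FEA1 than for FOX1, by 2.27 log2 units under tBOOH, 1.61 under NR, 1.44 under DBMIB and 1.08 under Hexenal, the last 2 resting in part on FEA1 signals at background. The 4 comparisons share the same 3 control arrays.

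**Figure D1:**
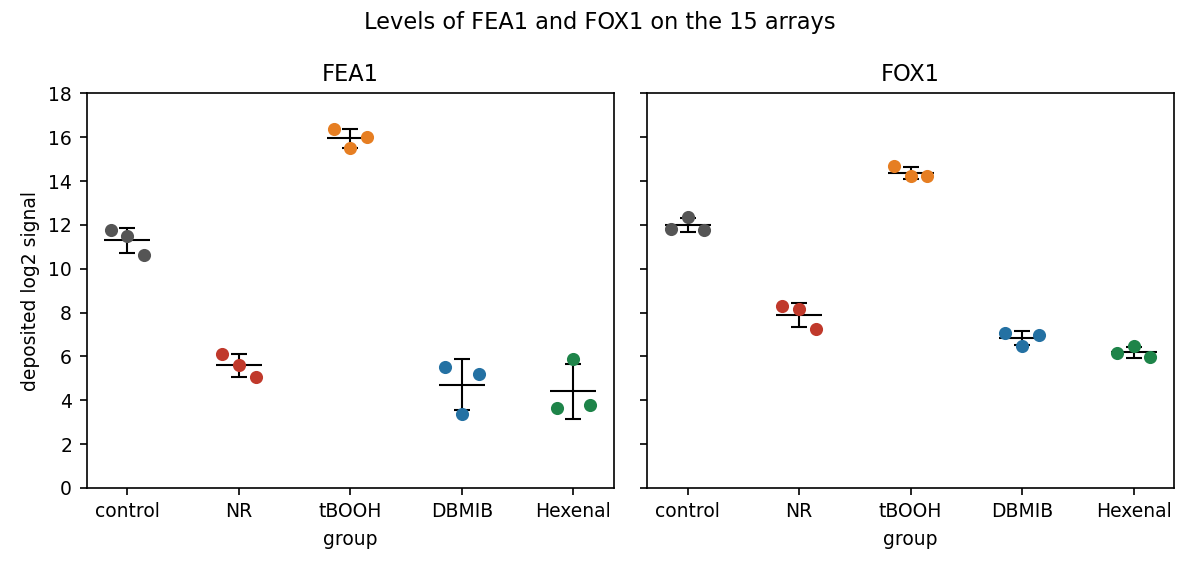
Deposited log2 signal of FEA1 (left) and FOX1 (right) on each of the 15 arrays, by group, with the replicates side by side in number order; horizontal bars are group means and error bars 1 SD of 3 arrays. Both genes are highest on the tBOOH arrays and lower on all NR, DBMIB and Hexenal arrays than on any control array, and FEA1 spreads most within DBMIB and Hexenal (SD 1.15 and 1.25).

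By mean level, both genes ran tBOOH, control, NR, DBMIB, Hexenal from highest to lowest. For FEA1 the first 2 steps, 4.66 and 5.71, were many times the SDs, whereas the last 3 groups were not separated. NR exceeded DBMIB by 0.88 and DBMIB exceeded Hexenal by 0.29, and in both cases the arrays of the 2 groups overlapped. NR and Hexenal overlapped as well, with a difference of 1.17 that ran from 0.78 without Hexenal replicate 1 to 1.90 without Hexenal replicate 2, and was 0.27 with local background subtracted and 50 added. For FOX1 no 2 groups overlapped. The separation of control, tBOOH and DBMIB was fixed by the choice of the probe. How many other probes keep all groups apart was not counted. The lower steps were small: 1.05 from NR to DBMIB, with a gap of 0.19 between the closest arrays, and 0.65 from DBMIB to Hexenal, with a gap of 0.022.

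On the scanner signals, which are available for the treated arrays and were not quantile-normalized, the order of the 4 treatments was the same. The 9 FEA1 spots of the tBOOH arrays gave processed signals of 64900 to 74900 intensity units. Those of the NR arrays gave 39.1 to 77.9, those of DBMIB 5.16 to 39.2 and those of Hexenal 6.09 to 46.8. The spots of 1 array lay close together, so the spread within DBMIB and Hexenal is a spread between arrays: on DBMIB replicate 2 the 3 spots read 5.16 to 7.05 and none was well above background, against 34.3 to 39.2 on replicate 1 and 28.2 to 30.6 on replicate 3.

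For FOX1 the 9 spots of a group ranged from 19700 to 27600 under tBOOH, 165 to 372 under NR, 60.5 to 105 under DBMIB and 45.3 to 70.4 under Hexenal, every spot well above background. The coefficient of variation over the 3 spots of an array had a median of 4.94% for FEA1 and 6.58% for FOX1, and reached 25.9% for FEA1, where signals were lowest, and 12.9% for FOX1. Relative to each array's 75th percentile, tBOOH exceeded DBMIB by 11.46 log2 units for FEA1 and by 7.72 for FOX1. With local background subtracted and 50 added, the differences were 9.25 and 6.94, and the FEA1 value includes DBMIB replicate 2, where no spot was above background. This contrast entered the choice of the genes, and the comparison called 50.1% of all probes.

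**Figure D2:**
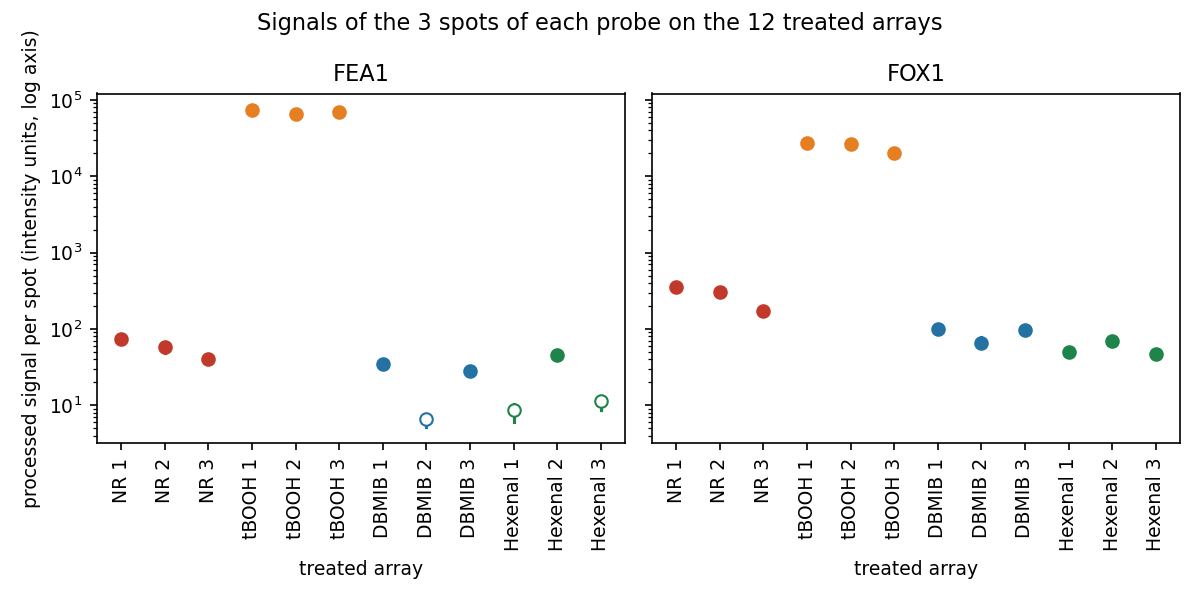
Processed scanner signal of FEA1 (left) and FOX1 (right) on the 12 treated arrays, on a logarithmic axis in intensity units; points are the median of the 3 spots of an array, vertical lines run from the lowest to the highest spot, and open points are arrays where no spot was well above background. The tBOOH arrays reach 64900 to 74900 for FEA1 and 19700 to 27600 for FOX1, and the 3 open points are FEA1 on DBMIB replicate 2 and Hexenal replicates 1 and 3.

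Within groups, the cultures that were high for FEA1 tended to be high for FOX1. The deviation of an array from its group mean had the same sign for both genes on 13 of 15 arrays, against a median of 7 arrays for FEA1 paired with each of the 16282 other probes; 0.504% of those probes, FOX1 included, reached 13 or more. NR replicate 3 was the lowest NR array for both, by 0.54 and 0.64 below the group mean. DBMIB replicate 2 was the lowest DBMIB array for both, by 1.32 and 0.36, and also had the smallest share of probes above background (72.7%, against 88.7% and 84.9% on the other DBMIB arrays). Hexenal replicate 2 was the highest Hexenal array for both, by 1.45 and 0.27, and had the smallest share in its group (80.9%, against 82.4% and 84.95%). The part of array quality in these deviations was not tested, and since the 3 deviations of a group sum to 0, the signs are not independent. The control, tBOOH and DBMIB values of FOX1 also picked out its probe. FEA1 was not well above background on DBMIB replicate 2 and Hexenal replicates 1 and 3. The count of signs is therefore a description and not a test.

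The loci next to FEA1 on each side changed in the same directions as FEA1 under every chemical. How many of all probes share this joint pattern was not counted, so how unusual it is cannot be said. Next to FEA1 in the annotation, CHLRE_12g546600v5 read 11.68, 11.96 and 10.88 on the control arrays and 14.68, 13.69 and 12.9 under tBOOH, a 4.76-fold rise (log2 change 2.25, SE 0.470, adjusted p = 7.33e-04, limma). It fell to 7.314, 6.959 and 7.358 under NR, to 8.286, 7.459 and 9.373 under DBMIB and to 5.386, 5.079 and 5.854 under Hexenal, with log2 changes of -4.30, -3.13 and -6.07 (adjusted p = 4.53e-06, 3.55e-05 and 5.27e-08). No array of these groups overlapped control, and all 12 treated arrays were well above background.

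On the other side, CHLRE_12g546500v5 read 5.377, 5.574 and 4.719 in control and 9.698, 8.874 and 9.302 under tBOOH, a 16.8-fold rise (log2 change 4.07, SE 0.261, adjusted p = 9.57e-09, limma). Under NR, DBMIB and Hexenal it lay between 1.34 and 2.141 and on none of those 9 arrays was its signal well above background. Bounds were taken against the lowest signal above background on those arrays. By them, its signal was nominally lower by 7.63-fold or more with NR, 4.24-fold or more with DBMIB and 4.39-fold or more with Hexenal. The limma tests used the signals as read, not the bounds (adjusted p = 7.54e-08, 3.83e-08 and 1.90e-08). On the scanner scale it was nominally higher by 73.4-fold or more under tBOOH than under DBMIB (adjusted p = 1.76e-09 for the signals as read, limma). CHLRE_12g546600v5 was 47.8-fold higher in that comparison (adjusted p = 9.52e-07, limma). With local background subtracted and 50 added, the log2 difference of CHLRE_12g546500v5 between tBOOH and DBMIB was 3.13, which is less than the bound. These bounds are nominal, since the floor is an extreme value and they leave out the spread between arrays.

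None of the other 4 loci around FEA1 was called higher under tBOOH and lower under all 3 other chemicals. CHLRE_12g546650v5, the second locus on one side, was at 12.65 ± 0.13 in control and 12.73 ± 0.07 under tBOOH (adjusted p = 0.705) and rose by 0.65 under NR, 1.25 under DBMIB and 0.79 under Hexenal; with spike-in centring the NR and Hexenal calls were lost. CHLRE_12g546450v5, the second on the other side, did not pass the test under tBOOH (log2 change -0.41, adjusted p = 0.0915) and fell by 1.71 under DBMIB. CHLRE_12g546700v5 rose by 0.83 under tBOOH and 0.63 under NR, calls that were lost with spike-in centring, and fell by 1.36 under DBMIB.

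Of the 6 nearest loci with a probe, counted as 3 on each side, 2 rose and 2 fell under NR, 3 rose and 1 fell under tBOOH, 1 rose and 5 fell under DBMIB and 1 rose and 4 fell under Hexenal. Of all probes, 23.7% were called higher and 21.3% lower under NR, 31.9% and 28.2% under tBOOH, 31.5% and 30.4% under DBMIB, and 31.6% and 25.7% under Hexenal, so 2 of 6 loci in 1 direction is near the background. The 5 and 4 loci that fell under DBMIB and Hexenal are a larger share than it, on 6 loci of 1 stretch of the genome. Their median log2 change was -0.08, 0.45, -1.53 and -0.76 in that order, and that of all probes 0.01, 0.10, 0.06 and 0.13. Between treatments, on the scanner scale, 4 of these loci were higher and 1 lower under tBOOH than under DBMIB, where 25.1% of all probes were called higher and 25% lower. Under NR, 3 were higher and 0 lower than under Hexenal (43.9% of probes called, 27.2% higher and 16.6% lower). With quantile normalization the split of NR against Hexenal over all probes was 3674 higher and 3592 lower, from 4436 and 2709.

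Some of these calls rested on single arrays. The call of CHLRE_12g546700v5 under NR was lost without control replicate 3 (log2 change 0.43) and without NR replicates 1 (0.58) and 3 (0.59). Between NR and Hexenal, the call of CHLRE_12g546450v5 (log2 difference 0.40, adjusted p = 0.0464, limma) was lost without any 1 of the 6 arrays (0.31 to 0.45) and was 0.11 with quantile normalization or the deposited values. Between tBOOH and DBMIB, its call (1.21) ended with local background subtracted and 50 added (0.021, adjusted p = 0.889, limma). The call of the same locus under Hexenal against control was lost without control replicate 1 (-0.28) and without Hexenal replicates 1 (-0.52), 2 (-0.45) and 3 (-0.52).

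None of the 6 loci around FOX1 was called higher under tBOOH and lower under the other 3 chemicals. Adjacent to it, CHLRE_09g393200v5 read 9.347, 9.656 and 8.699 in control and ran the other way. It rose 2.05-fold under NR, 3.32-fold under DBMIB and 4.65-fold under Hexenal (log2 changes 1.04, 1.73 and 2.22, SE 0.223 each, adjusted p = 0.0016, 8.02e-06 and 7.79e-07, limma), and under tBOOH its change of -0.36 did not pass the test (adjusted p = 0.178). On the scanner scale it was 4.36-fold lower under tBOOH than under DBMIB (adjusted p = 8.40e-07).

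On the other side of FOX1, CHLRE_09g393100v5 was well above background on 1 of 12 treated arrays and was called in no comparison. CHLRE_09g393400v5 fell under all 4 chemicals, from 10.26, 10.15 and 10.15 in control, with log2 changes of -3.86 under tBOOH, -3.57 under DBMIB, -3.24 under Hexenal and -1.22 under NR. CHLRE_09g393050v5 also fell under all 4, with log2 changes from -0.83 under NR to -2.085 under tBOOH, on signals that were well above background on 6 of 12 treated arrays; its call under NR was lost without control replicate 2 (-0.66) and without NR replicate 2 (-0.71).

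Among the 6 loci around FOX1, 1 rose and 2 fell under NR, 1 rose and 2 fell under tBOOH, 1 rose and 3 fell under DBMIB and 1 rose and 2 fell under Hexenal, and CHLRE_09g393000v5 was not above background on any treated array. Against control, 21.3% to 31.9% of all probes were called in 1 direction, so 1 or 2 of 6 loci is near that background. The median changes of the 6 loci were 0.15, -0.11, -0.24 and -0.04, and those of all probes 0.01, 0.10, 0.06 and 0.13. Against DBMIB, 1 locus was higher and 1 lower under tBOOH (25.1% and 25% of all probes). Under NR, 2 were higher and 1 lower than under Hexenal (27.2% and 16.6% of all probes). The rise of CHLRE_09g393450v5 under tBOOH, by 0.42, was lost when any 1 of the 6 arrays was left out, with values of 0.38 to 0.46, and with spike-in centring.

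**Figure D3:**
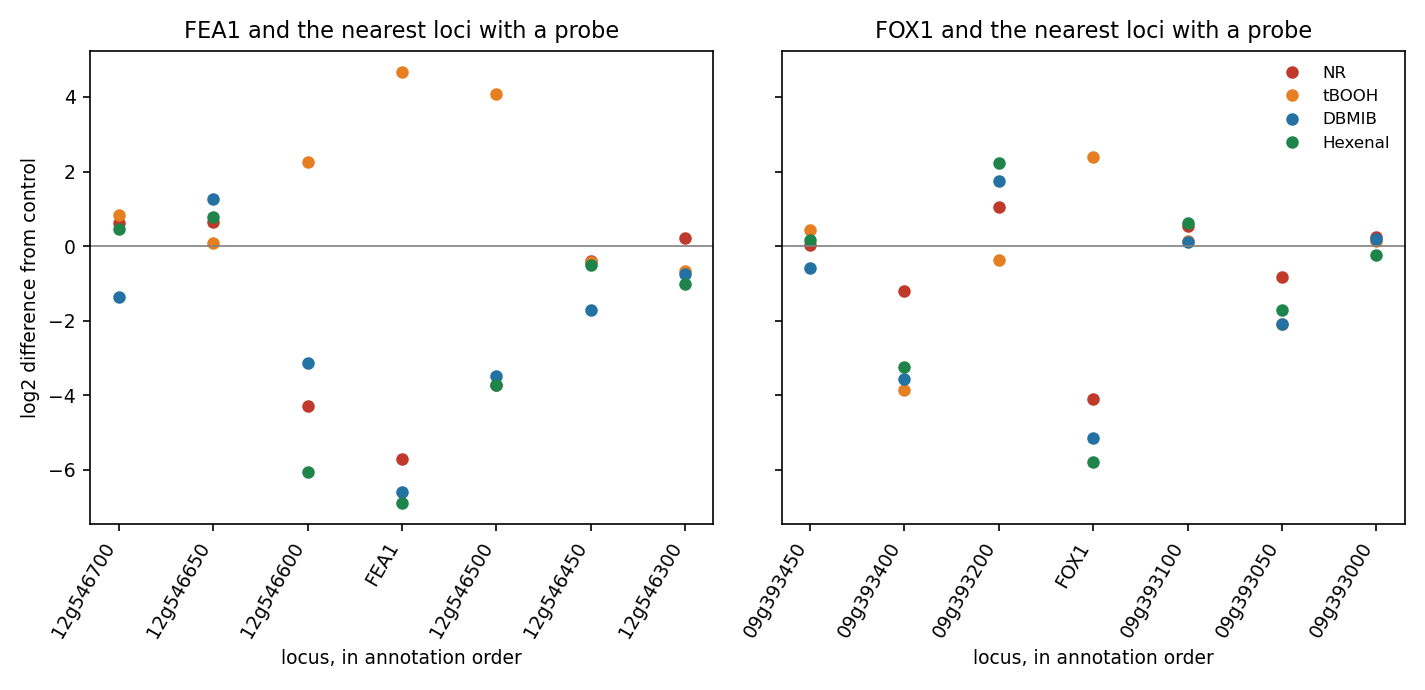
Log2 difference of each treated group's mean from control (deposited scale) for FEA1 (left), FOX1 (right) and the 3 nearest loci with a probe on each side, in annotation order; axis labels give the locus tag without its prefix and version suffix, and colours give the chemical. The loci adjacent to FEA1 lie above 0 under tBOOH and below it under NR, DBMIB and Hexenal as FEA1 does, while the locus left of FOX1 lies at -0.36 under tBOOH and above 0 under NR, DBMIB and Hexenal.

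Pearson's r over the 15 arrays was used to name the loci whose deposited levels ran most like those of each gene, among 2572 other specific-class probes with a locus tag and a range of at least 2 between group means. This likeness is a description: arrays of 1 group share a treatment, so r mainly reflects the 5 group means, and the deposited scale is common to all. FOX1 was the most like FEA1 (r = 0.986), and FEA1 was second most like FOX1. Of the 2572, 5 had r of 0.95 or more with FEA1 and 8 with FOX1, and the median r was 0.04 and 0.09. Both genes were chosen by their response in these data. The control, tBOOH and DBMIB values of FOX1 also picked out its probe. The likeness of the 2 genes was thus fixed in part by the choice and supports nothing further.

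The locus most like FOX1 was CHLRE_03g192050v5 (r = 0.994), which the table does not name. It read 11.36, 11.82 and 11.61 in control and 13.92, 13.16 and 13.32 under tBOOH. It read 8.957, 8.415 and 7.973 under NR, 7.153, 6.523 and 6.838 under DBMIB and 6.376, 6.318 and 6.085 under Hexenal, so it held the same order of groups as FEA1 and FOX1, with the DBMIB and Hexenal arrays closest together. Its mean changes of 1.87 under tBOOH, -3.15 under NR, -4.76 under DBMIB and -5.34 under Hexenal were each within 1 log2 unit of those of FOX1.

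The 5 loci most like each gene were nearly the same: apart from FEA1 and FOX1 themselves, both lists held CHLRE_03g192050v5, CHLRE_12g546500v5, CHLRE_01g010400v5 and CHLRE_12g554103v5. CHLRE_01g010400v5 (r = 0.973 with FEA1 and 0.978 with FOX1) changed less, by 1.30 under tBOOH, -1.81 under NR, -2.86 under DBMIB and -2.35 under Hexenal. CHLRE_12g554103v5 (0.965 and 0.969) changed by 0.67, -1.07, -1.55 and -1.45 in that order.

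The least like were CHLRE_06g262100v5 (r = -0.957 with FEA1 and -0.984 with FOX1) and CHLRE_03g178450v5 (-0.963 and -0.975). The first was lower under tBOOH than in control by 1.03 on the log2 scale (10.45 against 11.47) and higher under NR, DBMIB and Hexenal by 1.62, 2.36 and 2.97. The second differed from control by -0.97 under tBOOH and by 1.56, 1.64 and 2.19 in the others.

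The likeness was recomputed without each group in turn. Without tBOOH, the r of FEA1 and FOX1 was 0.973 over 12 arrays, FOX1 was second most like FEA1 after CHLRE_01g052250v5 (0.977), and FEA1 was in 11th place for FOX1. CHLRE_03g192050v5 stayed the most like FOX1 in each of these and on the scanner values of the 12 treated arrays (r of 0.989 to 0.999).

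**Figure D4:**
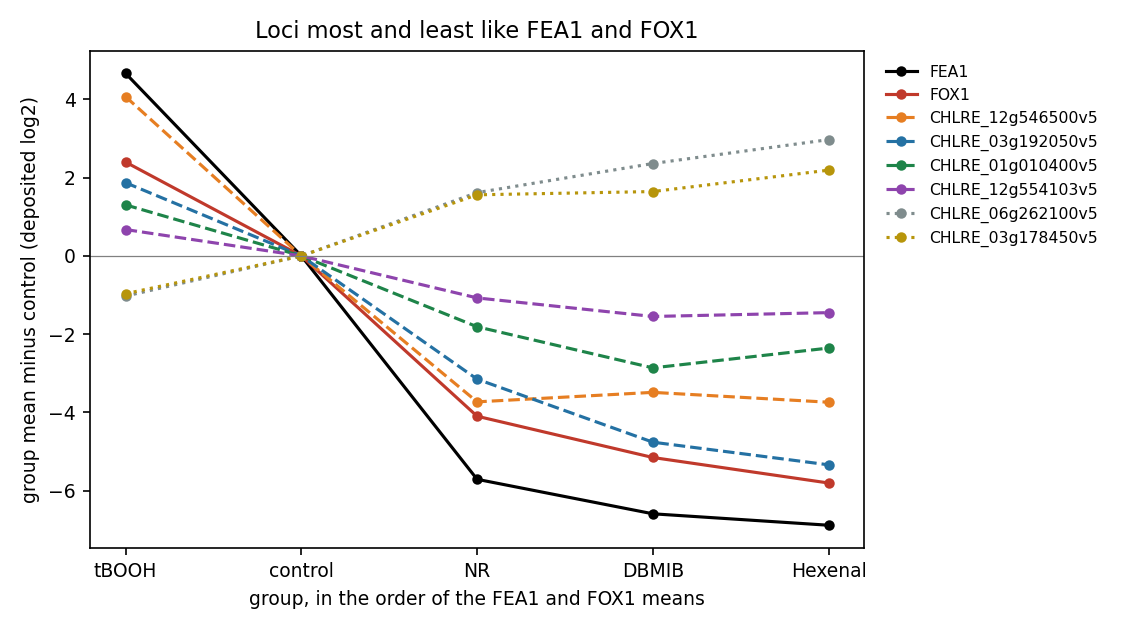
Group mean minus control on the deposited log2 scale for FEA1 and FOX1 (solid lines), the 4 other loci most like them (dashed) and the 2 least like them (dotted), with groups on the horizontal axis in the order of the FEA1 and FOX1 means; lines join groups to guide the eye. FEA1 spans 11.54 log2 units between its highest and lowest group and FOX1 8.20, and the dotted loci run in the opposite direction.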

How the data were processed

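Total RNA of 15 cultures was labelled with Cy3 and hybridised to custom Agilent arrays, per the labels' protocols. The members and gene lists were chosen with earlier results of these data known. The table of the whole series holds log2 values that the authors deposited for all 15 arrays; its columns have equal quartiles and rank probes as the mean log2 signal of the spots does (Spearman correlation 1 on the 12 treated arrays), so they are quantile-normalized. For the treated arrays the deposited scanner files give background-corrected signal intensity per spot, not normalized between arrays. The software and its version are not given in the sources used here.

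Each treated group was set against control with the deposited values, in 1 model of 5 groups (limma 3.58.1, R 4.3.3). Treatments were compared on log2 scanner intensity minus each array's 75th percentile, spots averaged, leaving out the 1.48% to 1.78% of spots that the scanner marked as outliers. Tests were two-sided, with Benjamini-Hochberg adjustment over 16283 probes at 0.05, and were tested on simulated data. The simulated arrays were independent and had few changed probes, unlike these data. The simulation therefore does not show how the tests behave here. Detection means that a share of 0.5 or more of a probe's spots carried the scanner's mark for signal above background; no such marks were used for control arrays. Probes from transcript number 200000 on were left without a locus tag, and 6942 probes (42.6%) have one, from RefSeq's table of assembly Chlamydomonas_reinhardtii_v5.5. That build is later than the array's, so it served for tags and their order only. It holds 0 gene symbols, so a wider list of iron and copper genes could not be matched and was not tested.

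Named are the 2 genes, the 3 nearest loci with a probe on each side, and the 5 most and 2 least like each gene. Replicate numbers are shared by the groups. Deviations of same-numbered arrays correlated above 0.1 in every pair for NR and control (0.141 to 0.217) and for tBOOH and DBMIB (0.101 to 0.212). This pairing was read from the data and is not stated in the labels. In the other 4 comparisons made, not every pair was above 0.1. Still, all 3 control arrays correlated most with the same-numbered tBOOH array, and all 3 NR arrays with the same-numbered Hexenal array. For control with DBMIB and control with Hexenal this held for 1 array each. Among treatments not compared, every pair was above 0.1 for Hexenal with tBOOH (0.136 to 0.268) and with DBMIB (0.186 to 0.242). The main fits held no replicate block.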

Additional observations from a re-analysis of the deposited data

How the results depend on the processing

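Alternatives were leaving out each array, the replicate number as a block, a filter on dim probes, a fit of 2 groups only, centring on 6 spike-in features, quantile-normalized or deposited values between treatments, all spots kept, and, chosen after seeing the data, median signal minus local background plus 50. The planned normexp correction was not run, because the files hold no mean signal and the model did not converge on the median signal of 2 arrays. All 64 recomputed counts of calls stayed within 1.5 times the count reported. The replicate block gave 7690 calls for NR, 10072 for tBOOH, 10375 for DBMIB and 9626 for Hexenal against control. It gave 8586 for tBOOH against DBMIB and 7677 for NR against Hexenal. Among the named loci it ended only the call of CHLRE_12g546450v5 under Hexenal (log2 change -0.50, adjusted p = 0.0607, limma). Deviations of same-numbered Hexenal and control arrays correlated at -0.109 to 0.128, and the labels do not say whether they are paired.

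Spike-in centring moved the median change of all probes to negative values in each comparison, by a shift of -0.14 for NR, -0.21 for tBOOH, -0.63 for DBMIB and -0.32 for Hexenal cultures. The share of calls that were higher then went from 52.6% to 41.4%, 53.1% to 42.7%, 50.9% to 24.2% and 55.1% to 36.7% in that order. With it the FOX1 difference was -5.78 for DBMIB minus control and 7.97 for tBOOH minus DBMIB. With local background subtracted and 50 added, tBOOH minus DBMIB was 9.25 for FEA1 and 6.94 for FOX1, since the offset compresses dim signals; 3246 probes were then higher and 6257 lower, from 4087 and 4063, and the median of all probes went from -0.07 to -0.26. For NR minus Hexenal that median was 0.13 as reported, -0.04 with quantile normalization or the deposited values (3612 higher, 3438 lower) and -0.02 with local background subtracted. No difference of the 2 genes changed sign, and 88 recomputed values other than these 4 moved by less than 1 SD. Without single arrays tBOOH minus DBMIB on the deposited scale ran from 10.59 (without DBMIB replicate 2) to 11.66 for FEA1.

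Among the 12 neighbouring loci, 32 of 48 tests against control gave a call, where 45% to 61.9% of all probes were called. Of these calls, 4 were lost without some array, 5 with spike-in centring and 7 under any alternative, and none reversed. Between treatments, 13 of 24 tests gave a call. Of all probes, 50.1% were called for tBOOH against DBMIB and 43.9% for NR against Hexenal. Of the 13 calls, 1 was lost without some array and 4 under any alternative, again with none reversed. Both counts are somewhat larger shares than those of all probes, on 12 loci close to the chosen genes, and the excess was not tested. Signals under 4 on the deposited scale limit FEA1 under DBMIB and Hexenal: 39.6% of treated values from 3 to 4 were well above background, against 86.6% from 4 to 5.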

Other observations

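Probes without a locus tag also ran like the iron genes; these were looked up after the data were seen. The closest to FEA1 and to FOX1 in this class was the probe of transcript 196461 (r = 0.971 and 0.982 over 15 arrays), with group means of 7.20 under tBOOH, 6.28 in control, 4.58 under NR, 4.32 under DBMIB and 4.33 under Hexenal. The probe of transcript 188106 (r = 0.965 and 0.979) had means of 13.97 under tBOOH, 11.3 in control, 9.06 under NR, 6.93 under DBMIB and 6.15 under Hexenal. The probe of transcript 418783 (r = 0.967 and 0.975) ran from 5.34 under tBOOH and 4.40 in control to 2.52 under DBMIB and 2.01 under Hexenal; between 2 and 3 on this scale, 1.73% of values from treated arrays exceeded background by the scanner's mark.

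Over all 16283 probes, 27 had a range between group means as wide as the 8.20 log2 units of FOX1, FOX1 included. FOX1 was chosen for this response, so the count describes it and supports nothing further.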
